A study of Mus musculus with 335 samples.

Results

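Sox10 and Foxd3 are transcription factor genes of the neural crest, and they are 2 of the 13448 genes with a symbol in the deposited count table. They were chosen by name. Full-length single-cell RNA sequencing (Smart-seq2) was done on 335 cells of the aorta-gonad-mesonephros (AGM) region, the tissue around the embryonic aorta where blood stem cells arise, of mouse embryos. The embryos were wild type and at stage E11.5. Both genes are described in 4 sorted groups. Dorsal is 93 Ngfr+Pdgfrb- cells from the dorsal side, and Ventral is 89 Ngfr+Pdgfrb- cells from the ventral side. Mesenchymal is 88 ventral Pdgfrb+Ngfr- cells, and HSC is 65 EPCR+CD45+ cells, a gate that contains blood stem cells. All 4 groups are wild type, and the labels give no treatment. Ngfr is a neurotrophin receptor of crest-derived cells, Pdgfrb a receptor of mesenchymal cells, and EPCR and CD45 are surface proteins of the stem cell gate. Each group was sequenced as 1 pool and the labels name no embryo or litter, so each group counted as 1 sample and no test was possible. A difference between groups cannot be told apart from a difference between their pools.

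Neural crest cells leave the dorsal neural tube and migrate past the aorta, where they give rise to sympathetic neurons, adrenal chromaffin cells and the glial lineage of peripheral nerves. Sox10, an HMG-box factor of the SoxE family, keeps migrating crest cells multipotent and is needed for peripheral glia. It is shut off in most crest cells that become neurons. Foxd3, a forkhead factor that often acts as a repressor, maintains crest progenitors and holds back the melanocyte fate.

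In the GENCODE M21 annotation of GRCm38, Sox10 (ENSMUSG00000033006) lies on the minus strand at chr15:79154908-79165240, with 4 transcripts of 2 to 5 exons. Foxd3 (ENSMUSG00000067261) is a single-exon gene on the plus strand at chr4:99656299-99658622. Of 3043 different 31-base words in Sox10 transcripts, 25 also occur in another gene, and all 25 are in Sox9. Of 2294 such words in Foxd3, 127 (5.54%) occur elsewhere, among them 49 in Foxd4, 20 in Foxd1, 17 in Foxd2 and 9 in Foxl1, all forkhead genes. Another 59 lie in Gm23366, a miRNA gene inside Foxd3. The rest of each transcript is free of words shared with another gene, so reads of both genes can mostly be told from those of their relatives.

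The 250 bases before the Foxd3 start, from the RefSeq promoter table on GRCm38.p6, are shown because this window lies directly upstream of the only Foxd3 transcript counted. Capitals mark a cyclic AMP response element (TGACGTCA) and an E-box (CACGTG), both picked on sight of the sequence. The window is chr4:99656049-99656298 on the plus strand, written 5′ to 3′.
Foxd3 upstream window: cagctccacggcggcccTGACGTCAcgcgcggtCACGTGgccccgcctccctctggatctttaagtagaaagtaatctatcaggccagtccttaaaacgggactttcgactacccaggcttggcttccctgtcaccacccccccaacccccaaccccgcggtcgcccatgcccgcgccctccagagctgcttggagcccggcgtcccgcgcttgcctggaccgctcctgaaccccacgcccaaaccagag
Among 32851 promoter windows of this length, searched on both strands, TGACGTCA occurred in 1.55% and CACGTG in 6.02%. The general E-box CANNTG, of which CACGTG is a case, has this 1 match here and occurred in 66.2% of windows. ACAANG, a core of SOX binding sites, has no match in this window and occurred in 36.3% of windows. The Sox10 window is not analysed here.

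Summed estimated counts were 108409099 for Dorsal, 110598792 for Ventral, 68560755 for Mesenchymal and 82516453 for HSC. Single cells held 126979 to 20481041 counts, and 1 cell, Ventral 41, held 18.5% of the Ventral counts while having 2.70 counts of Sox10 and 0 of Foxd3. All 96 index pairs were used in more than 1 pool, and none was used for 2 cells within a pool. Marker lists were set beside the sort. They include genes of the sort itself, Pdgfrb among mesenchyme, Procr (EPCR) and Ptprc (CD45) among blood and Ngfr among glial genes. Part of the match is thus set by the gate. Among cells of at least 310000 counts, 69 of 69 Mesenchymal cells had at least 50% of 10 mesenchyme markers, and 64 of 64 HSC cells at least 50% of 9 blood markers. Of the same HSC cells, 60 of 64 also had at least 50% of 8 endothelial markers. At least 50% of 24 glial and Schwann cell precursor genes were positive in 63 of 92 Dorsal and 26 of 80 Ventral cells. The Ngfr+ gates also held other cells: macrophage markers reached that share in 7 Dorsal and 8 Ventral cells, and mesenchyme markers in 7 Ventral cells. In bulk sums fewer expressing cells and less RNA per cell cannot be told apart, which is why values per cell follow each sum.

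Both genes were found in the Ngfr+ groups, more in Dorsal than in Ventral, and were at or near 0 in the others. Sox10 summed to 316 counts per 1000000 counts (CPM) in Dorsal (exact Poisson 95% limits 312 to 319), 78.6 CPM in Ventral (77 to 80.3), 0.110 CPM in Mesenchymal (0.0459 to 0.221) and 0 counts in HSC. Foxd3 summed to 23.8 CPM in Dorsal (22.9 to 24.7) and 5.46 CPM in Ventral (5.04 to 5.92), with 0 counts in Mesenchymal and in HSC. These limits cover counting error in the sums only. The limits on shares of cells below cover only the drawing of cells from a pool, with cells taken as independent. Neither kind covers spread between embryos. A count of 0 was set at 3 counts over the group, which is 0.0364 CPM in HSC and 0.0438 CPM in Mesenchymal. The exact upper limits of 0 counts were 0.0447 CPM in HSC and 0.0538 CPM in Mesenchymal.

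The spread over single cells differed between the Ngfr+ groups. Sox10 in Dorsal cells ran from 1.82 to 742 CPM with a median of 297 and quartiles of 55.4 and 426. In Ventral cells it ran from 0 to 802 CPM with a median of 9 and quartiles of 2.01 and 181. The ranges overlapped fully, and the highest single value was in a Ventral cell, Ventral 19. Sox10 had at least 50 CPM in 71 Dorsal and 37 Ventral cells, 20 to 50 CPM in 7 Dorsal and 1 Ventral cells, and under 20 CPM in 15 Dorsal and 51 Ventral cells. Ventral cells thus fell into a high and a low range with a nearly empty stretch between them, while Dorsal cells were mostly high.

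Foxd3 was sparser than Sox10 in both groups. It ran from 0 to 260 CPM with a median of 9.80 in Dorsal cells, and from 0 to 125 CPM with a median of 0 in Ventral cells. Any Foxd3 count was found in 71 of 93 Dorsal and 21 of 89 Ventral cells, and any Sox10 count in 93 of 93 Dorsal and 78 of 89 Ventral cells. Single cells weighed more in the Foxd3 sums: Dorsal 23 gave 13.6% of the Dorsal Foxd3 counts and Ventral 15 gave 35.5% of the Ventral ones. The largest share of Sox10 counts from 1 cell was 4.65% in Dorsal and 7.69% in Ventral. In Mesenchymal, all 7.53 Sox10 counts came from 1 cell, Mesenchymal 76, at 11.3 CPM.

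**Figure D1:**
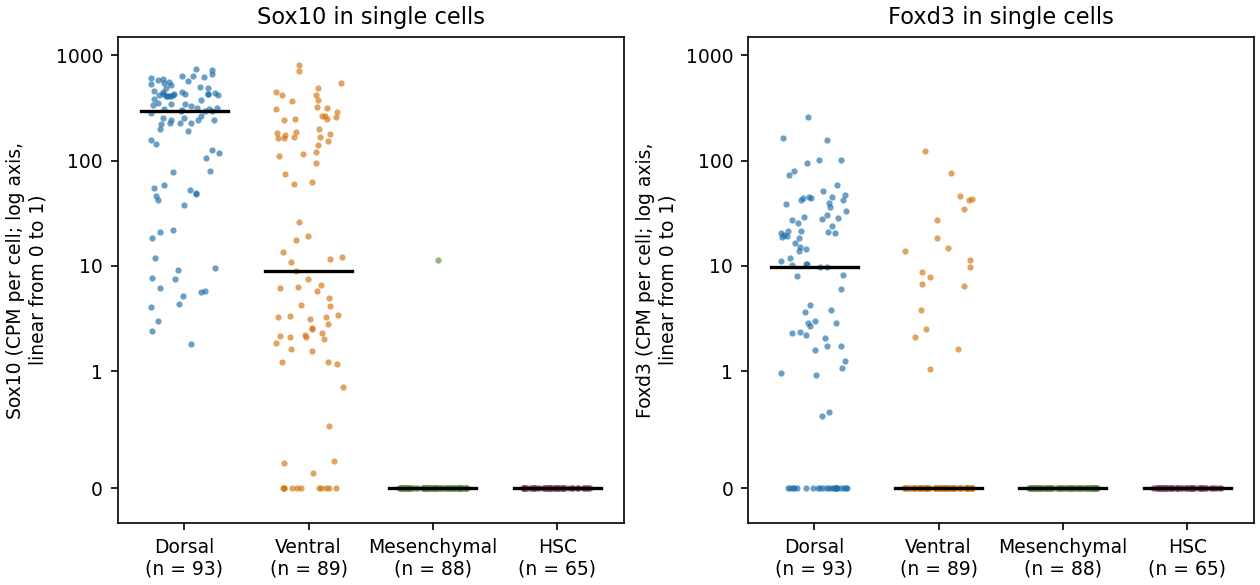
CPM of Sox10 (left) and Foxd3 (right) in each cell of the 4 sorted groups, on a log axis that is linear from 0 to 1; each point is a cell and each bar the group's median. Sox10 medians are 297 CPM in Dorsal and 9 CPM in Ventral cells, Foxd3 medians are 9.80 and 0 CPM in Dorsal and Ventral cells, and a single Mesenchymal cell lies above 0 for Sox10.

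Set side by side, the genes differed between the Ngfr+ groups by similar amounts. On log2(CPM + 1) of summed counts, Dorsal exceeded Ventral by 1.99 for Sox10 and by 1.94 for Foxd3. They ranked 111 and 125 of 13152 measured genes, of which Dorsal exceeded Ventral at least 2-fold for 10.1% and fell short of it at least 2-fold for 8.3%. The median gene was higher in Dorsal by 0.14. With every cell weighted equally the difference was 1.31 for Sox10 and 1.87 for Foxd3. Without the deepest Ventral cell the differences were 1.70 for Sox10 and 1.68 for Foxd3.

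Against the other sorted groups the differences were far larger. Sox10 was higher by 8.16 on the log2(CPM + 1) scale in Dorsal than in Mesenchymal, rank 2 of 13114 genes, of which 17.5% were past 2-fold higher and 9.68% past 2-fold lower. In Ventral it was higher than in Mesenchymal by 6.16, rank 18 of 13065 genes, of which 17.1% were at least 2-fold higher. Both values understate the ratio, because the Mesenchymal level lies under the pseudocount of 1 CPM. Foxd3 was at least 543-fold higher in Dorsal and at least 125-fold higher in Ventral than in Mesenchymal, with 0 counts set at 3 per group. Folds over HSC below use the same setting. At the exact upper limits of 0 counts, the folds over groups with 0 counts would be smaller. Relative to HSC, Sox10 was at least 8679-fold higher in Dorsal and at least 2162-fold higher in Ventral. Foxd3 was at least 654-fold higher in Dorsal and at least 150-fold higher in Ventral than in HSC. Past 2-fold higher than in HSC were 25.3% of genes in Dorsal and 24.5% of genes in Ventral.

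Of the family members, Sox8 was also found mainly in the Ngfr+ groups, and Sox9, Foxd1 and Foxd2 were not. Sox8, the SoxE relative that overlaps Sox10 in crest cells, summed to 96.9 CPM in Dorsal, 49.3 in Ventral, 2.22 in Mesenchymal and 1.66 in HSC, a log2 difference of 0.96 for Dorsal over Ventral and 4.93 for Dorsal over Mesenchymal. It was positive, by the threshold used below for both members, in 57 of 92 Dorsal, 30 of 80 Ventral, 1 of 69 Mesenchymal and 0 of 64 HSC cells. Sox9, a SoxE factor of early crest and of cartilage, had 9.77 CPM in Dorsal and 25.8 CPM in Ventral, against 65.8 CPM in Mesenchymal. In Ventral, 70.9% of the Sox9 counts came from Ventral 41. Foxd1, known from stromal cells, had 0.312 CPM in Dorsal and 0.322 CPM in Ventral, against 29.3 CPM in Mesenchymal. Foxd2 stayed at or under 2.62 CPM in every group. Polr2f, an RNA polymerase subunit gene 3134 bases from Sox10, was found in all groups at 54.8 to 104 CPM and was lower in Dorsal than in Ventral by 0.91 on the log2 scale.

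To compare cells at equal depth, each cell was thinned to 310000 counts, and a cell was called positive with at least 5 counts. Sox10 was positive in 77 of 92 Dorsal cells (83.7%, exact Clopper-Pearson 95% limits 74.5 to 90.6%) and in 36 of 80 Ventral cells (45%, 33.8 to 56.5%). Foxd3 was positive in 38 of 92 Dorsal cells (41.3%, 31.1 to 52.1%) and in 9 of 80 Ventral cells (11.2%, 5.28 to 20.3%). Neither gene was positive in 69 Mesenchymal cells, which allows a share of up to 4.35%, or in 64 HSC cells, which allows up to 4.69%. The exact upper limits were 5.21% in Mesenchymal and 5.6% in HSC, so the limits for Foxd3 in Ventral and in HSC overlap. Pools without Sox10-rich cells do not show how many counts reach other wells within a pool. Median depths of the cells used were 1041978 counts in Dorsal, 615353 in Ventral, 584945 in Mesenchymal and 967238 in HSC. Without thinning, Sox10 was positive in 94.6% of Dorsal and 49.4% of Ventral cells, and Foxd3 in 58.1% of Dorsal and 14.6% of Ventral cells.

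The pool difference lay in the share of positive cells more than in their level. Among Sox10-positive cells the mean was 335 CPM in 77 Dorsal cells and 255 CPM in 36 Ventral cells (SD over cells 187 and 181), a log2 ratio of 0.39, while the shares differed by a log2 ratio of 0.90. Among Foxd3-positive cells the mean was 51.7 CPM in 38 Dorsal cells and 47.4 CPM in 9 Ventral cells (SD over cells 49.9 and 34.2), a log2 ratio of 0.12, while the shares differed by 1.88. These means are over cells past the threshold, which sets a floor on the level in both groups. Without the cells rich in macrophage or mesenchyme markers, Sox10 was positive in 77 of 85 Dorsal cells (90.6%) and 36 of 65 Ventral cells (55.4%), and Foxd3 in 44.7% and 13.8% of these.

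The threshold cut Foxd3 more finely than Sox10. Of 92 Dorsal cells, 3 had 3 or 4 thinned Sox10 counts and 1 had 5 to 7, whereas 11 had 3 or 4 Foxd3 counts and 10 had 5 to 7. Of 80 Ventral cells, 6 had 3 or 4 Sox10 counts and 1 had 5 to 7, and 4 had 3 or 4 Foxd3 counts and 1 had 5 to 7. Before thinning, 28 of 40 Dorsal and 7 of 27 Ventral cells called positive for Sox10 only had some Foxd3 counts, so a cell without Foxd3 by this threshold need not lack its RNA.

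Foxd3 was found almost entirely within Sox10-positive cells, and only some Sox10-positive cells had it. Of the 92 Dorsal cells, 37 were positive for both genes, 40 for Sox10 only, 1 for Foxd3 only and 14 for neither. Of the 80 Ventral cells, 9 were positive for both, 27 for Sox10 only, 0 for Foxd3 only and 44 for neither. Foxd3 was thus positive in 48.1% of Sox10-positive Dorsal cells (36.5 to 59.7%) and 25% of Sox10-positive Ventral cells (12.1 to 42.2%). Among Sox10-negative cells it was positive in 1 of 15 Dorsal and 0 of 44 Ventral cells. Sox10 was positive in 37 of 38 Foxd3-positive Dorsal cells and 9 of 9 Foxd3-positive Ventral cells. Without thinning these were 54 of 54 Dorsal and 13 of 13 Ventral cells.

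The single cell with Foxd3 only, Dorsal 47, sat at the threshold. Before thinning it had 21.7 CPM of Sox10 and 18.5 CPM of Foxd3, and after thinning 4 counts of Sox10 and 6 of Foxd3. It was positive for 17 of 18 sympathoadrenal genes, 15 of 16 neuronal genes and 6 of 24 glial genes.

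Foxd3 went with the level of Sox10, not only with its presence. Over Dorsal and Ventral cells together, 0 of 60 cells under 20 CPM of Sox10 were Foxd3-positive, 7 of 36 (19.4%) at 20 to 200 CPM, 13 of 36 (36.1%) at 200 to 400 CPM and 27 of 40 (67.5%) at 400 CPM or more. In Dorsal cells the counts in these ranges were 0 of 15, 5 of 18, 10 of 26 and 23 of 33. In Ventral cells they were 0 of 45, 2 of 18, 3 of 10 and 4 of 7. The order was the same in both groups, the limits of neighbouring ranges overlapped, and those of the lowest and the highest range did not.

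**Figure D2:**
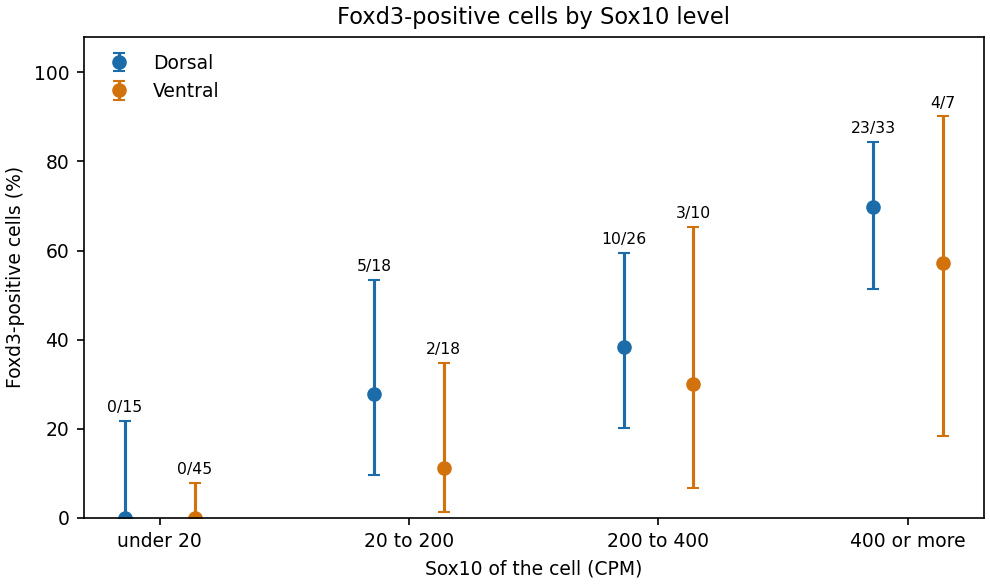
Share of Foxd3-positive cells (%) by the cell's Sox10 level (CPM) in Dorsal and Ventral cells thinned to 310000 counts; bars are exact Clopper-Pearson 95% limits and the numbers are Foxd3-positive cells over all cells. The share is 0 in both groups under 20 CPM and reaches 23 of 33 Dorsal and 4 of 7 Ventral cells at 400 CPM or more.

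As a rank correlation of CPM over cells, Sox10 and Foxd3 gave a Spearman coefficient of 0.681 in 93 Dorsal cells and 0.512 in 89 Ventral cells. Within Sox10-positive cells it was 0.576 in 77 Dorsal and 0.381 in 36 Ventral cells. The cells of a group share 1 pool, so these are descriptions of the pools. With the total count of a cell, Foxd3 CPM had a Spearman coefficient of 0.0737 in Dorsal and 0.142 in Ventral cells, and Sox10 CPM one of 0.323 in Dorsal and 0.0331 in Ventral cells.

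**Figure D3:**
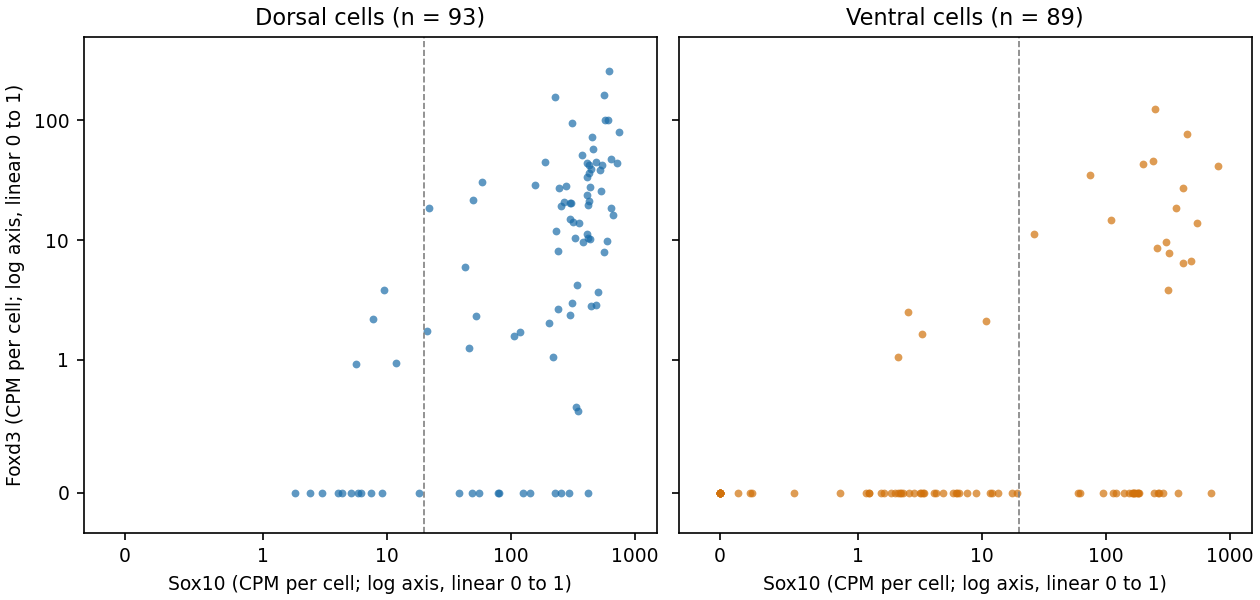
Foxd3 against Sox10 (CPM per cell, log axes that are linear from 0 to 1) in 93 Dorsal cells (left) and 89 Ventral cells (right); each point is a cell and the dashed line marks 20 CPM of Sox10. Foxd3 stays at or under 3.80 CPM left of the line, and many cells to its right have 0 Foxd3.

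The genes most like Sox10 over all 182 Ngfr+ cells included glial and adhesion genes, and Foxd3 shared part of that set. Of 10624 genes ranked, Phactr1 (an actin regulator), Lmo4 (a transcription cofactor), Spon1 (a matrix protein), Ednrb (the endothelin receptor of crest cells) and Pls3 (an actin bundler) led for Sox10, with Spearman coefficients of 0.812 to 0.801. Cdh19 and Cdh6, both cadherins, Erbb3, the neuregulin receptor, and Mcam, an adhesion molecule, were among those that followed, down to 0.774. Foxd3 ranked 25 for Sox10 at 0.716. For Foxd3 itself Slc35f1, a solute carrier family gene, led at 0.720 and Sox10 ranked 2 of 10624. Pls3, Gpr17, Megf10, Ednrb, Prss12, Phactr1, Egfl8 and Afap1l2 completed its first 10, down to 0.682. Ednrb, Phactr1 and Pls3 stood in both sets of 10. These coefficients span both groups, so the difference between the 2 pools enters them. Within each group they were lower for every gene of both sets. For Sox10 the first 10 had 0.645 to 0.759 in Dorsal and 0.661 to 0.758 in Ventral cells. For Foxd3 they had 0.573 to 0.686 in Dorsal and 0.401 to 0.606 in Ventral cells.

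Sox10-positive cells carried the crest and glial programme in both groups. In Dorsal, 20 of 24 measured glial and Schwann cell precursor genes were at least 2-fold higher in Sox10-positive than in Sox10-negative cells and 0 were lower, where 18.1% of all 12557 measured genes were higher and 12.5% lower. In Ventral, 18 of 23 were higher and 1 lower, where 6.88% of 12354 genes were higher and 13.7% lower. The same 18 genes were higher in both groups. The list's median log2 difference was 3.12 in Dorsal and 2.54 in Ventral, beside 0.14 and -0.05 over all genes. Erbb3 averaged 159 CPM in Sox10-positive and 2.96 CPM in Sox10-negative Dorsal cells, and 165 and 3.28 CPM in Sox10-positive and Sox10-negative Ventral cells.

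Of 18 measured crest regulators, 14 were at least 2-fold higher in Sox10-positive Dorsal cells and 10 in Sox10-positive Ventral cells, 10 of them in both, where 18.1% and 6.88% of all genes were higher. Sox8 was positive in 74% of Sox10-positive and 0 of 15 Sox10-negative Dorsal cells, and in 72.2% of Sox10-positive and 9.1% of Sox10-negative Ventral cells. Sox5, a SoxD factor expressed in crest cells, was positive in 81.8% and 13.3% of Sox10-positive and Sox10-negative Dorsal cells, and in 55.6% and 13.6% of the same Ventral classes. Tfap2b, an AP-2 factor of crest and sympathetic cells, was positive in 76.6% and 33.3% of these Dorsal classes and in 66.7% and 27.3% of the Ventral ones. Tfap2a, its relative in early crest, was positive in 29.9% of Sox10-positive Dorsal and 30.6% of Sox10-positive Ventral cells, against 0 of 15 and 2.27% of Sox10-negative cells. Snai2, an epithelial-mesenchymal transition factor, was positive in 7.79% of Sox10-positive and 0 of 15 Sox10-negative Dorsal cells, but in 11.1% and 27.3% of the same Ventral classes. In Mesenchymal cells, the group with the most Snai2, it was positive in 82.6%.

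What the Sox10-negative cells held differed from cell to cell. Of 14 Dorsal cells with neither gene, 7 had at least 50% of the macrophage markers positive and 6 at least 50% of the sympathoadrenal genes. Of 44 Ventral cells with neither gene, 8 had at least 50% of the macrophage, 7 of the mesenchyme, 1 of the endothelial and 14 of the sympathoadrenal markers. All 10 measured macrophage markers were at least 2-fold lower in Sox10-positive cells of both groups, where 12.5% of all genes in Dorsal and 13.7% in Ventral were lower. Their summed level over cells with both genes ran from 1.27 to 156 CPM in Dorsal and from 1.49 to 38.4 CPM in Ventral, and in cells with neither from 4.36 to 18547 CPM in Dorsal and from 0 to 14715 CPM in Ventral. Of the mesenchyme markers, 4 of 8 were higher and 2 lower in Sox10-positive Dorsal cells, and 1 of 10 was higher and 7 lower in Sox10-positive Ventral cells. Of the genes higher in Dorsal, the collagen genes Col1a2 and Col3a1 were named after their values were seen. Col1a2 was positive in 84.4% of Sox10-positive and 26.7% of Sox10-negative Dorsal cells, and Col3a1 in 72.7% and 13.3% of these. Blood markers were lower for 3 of 6 measured genes in Dorsal and 5 of 7 in Ventral, and endothelial markers for 1 of 3 in Dorsal, where 1 was higher, and 8 of 8 in Ventral. Beside these and the mesenchyme counts stand the same shares of lower genes, 12.5% in Dorsal and 13.7% in Ventral, and 18.1% and 6.88% of higher ones. The erythroid list had 1 measured gene in Dorsal, Alas2, a heme synthesis enzyme, positive in 3 of 77 Sox10-positive and 0 of 15 Sox10-negative cells. Mrc1 and Fcgr1 were positive in 0 Sox10-positive cells of either group. Without the macrophage-rich cells, 22 of 24 glial genes in Dorsal and 19 of 23 in Ventral were at least 2-fold higher in Sox10-positive cells. In that setting 22.2% of all genes in Dorsal and 7.27% in Ventral were higher, with 8 and 36 Sox10-negative cells.

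Fewer sympathoadrenal and neuronal genes passed 2-fold in the same comparison, where 18.1% of all genes were higher and 12.5% lower in Dorsal, and 6.88% higher and 13.7% lower in Ventral. Of 18 sympathoadrenal genes, 1 was higher and 2 lower in Sox10-positive Dorsal cells, and 2 were higher and 4 lower in Sox10-positive Ventral cells. Of 16 neuronal genes, 5 in Dorsal and 3 in Ventral were lower and 0 were higher. Of the cells with at least 50% of the neuronal genes, 20 of 27 Dorsal and 14 of 28 Ventral cells were Sox10-positive, while 5 of 27 and 2 of 28 were Foxd3-positive.

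Within Sox10-positive cells, those that also had Foxd3 had less of the sympathoadrenal and neuronal genes. In Dorsal, 12 of 18 measured sympathoadrenal genes and 14 of 16 neuronal genes were at least 2-fold lower in cells with both genes than in cells with Sox10 only, and 0 were higher, where 7.69% of all 12083 genes were lower. In Ventral, 13 of 17 and 11 of 15 were lower and 0 higher, where 16.1% of 10697 genes were lower. The same 12 sympathoadrenal and 11 neuronal genes were lower in both groups. List medians were -1.78 and -2.26 in Dorsal and -2.53 and -2.65 in Ventral on the log2 scale, beside -0.01 and -0.07 over all genes. The Ventral comparison rests on 9 cells with both genes. With classes taken from unthinned counts, 13 Ventral cells had both genes. Only 4 of 18 sympathoadrenal and 2 of 16 neuronal genes were then lower in Ventral, where 10.9% of all genes were. The neuronal median was 0.12, and the neuronal count is near that share. The Dorsal counts under that setting were 11 of 18 and 13 of 16, where 11.2% of all genes were lower.

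Genes named singly come from the ends of a list by difference in positive share, so they do not show its typical size. Their Ventral percentages rest on the same 9 cells with both genes, and the Ventral list counts above fell with unthinned classes. Isl1, a LIM homeobox factor of differentiating sympathetic neurons, was positive in 5.41% of Dorsal cells with both genes and 37.5% of those with Sox10 only, and in 0 of 9 and 44.4% of the same Ventral classes. Insm1, a zinc finger factor of sympathoadrenal progenitors, was positive in 16.2% and 52.5% of these Dorsal cells and in 22.2% and 81.5% of the Ventral ones. Gata3, needed for sympathoadrenal differentiation, was positive in 45.9% and 77.5% in Dorsal and in 44.4% and 88.9% in Ventral. Each of these genes was less frequent beside Foxd3 in both groups. Elavl3, a neuronal RNA-binding protein, was positive in 10.8% and 37.5% in Dorsal and in 11.1% and 44.4% in Ventral. Stmn3, a neuronal tubulin regulator, was positive in 8.11% and 37.5% in Dorsal and in 0 of 9 and 40.7% in Ventral. Sox4 and Sox11, SoxC factors of many progenitors, were positive in at least 92.5% of cells of all 4 classes.

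Genes of the bridge state, which links Schwann cell precursors to chromaffin cells in the mouse adrenal gland, were lower beside Foxd3. Htr3a (a serotonin receptor), Thbd (thrombomodulin), Dll3 (a Notch ligand) and Tlx2 (a homeobox factor) were all at least 2-fold lower in cells with both genes, in both groups, where 7.69% of all genes in Dorsal and 16.1% in Ventral were lower. The Ventral count rests on the same 9 cells. With classes from unthinned counts, 4 of 4 were lower in Dorsal and 3 of 4 in Ventral. Of all genes 11.2% and 10.9% were then lower, and list medians were -2.39 and -1.66 in place of -2.19 and -3.65. Among cells with at least 200 CPM of Sox10, 1 of 4 was lower in Dorsal and 3 of 3 measured in Ventral. There 5.32% and 15.1% of all genes were lower, and list medians were -0.64 and -2.89. Tlx2 was positive in 9 of 37 Dorsal cells with both genes and 24 of 40 with Sox10 only, and in 33.3% and 92.6% of the same Ventral classes. Htr3a was positive in 2.70% and 22.5% in Dorsal and in 0 of 9 and 33.3% in Ventral.

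Glial genes ran the other way. In Dorsal, 5 of 24 glial and Schwann cell precursor genes were at least 2-fold higher in cells with both genes and 0 lower, where 4.65% of all genes were higher. With classes from unthinned counts it was 17 of 24, where 7.83% of all genes were higher, and the list's median was 1.40 in place of 0.70. In Ventral, 13 of 22 were higher and 1 lower, where 11.1% of all genes were higher. Egfl8 (a secreted EGF-like protein) and Ttyh1 (a chloride channel family member, chosen after its values were seen) were among those higher in both groups. Erbb3 was positive in all 37 Dorsal and all 9 Ventral cells with both genes, and in 67.5% of Dorsal and 77.8% of Ventral cells with Sox10 only. Gfra3, a GDNF family receptor, was positive in 81.1% and 62.5% in Dorsal and in 88.9% and 22.2% in Ventral. Of the Foxd3-positive cells, 37 of 38 in Dorsal and 9 of 9 in Ventral were Erbb3-positive.

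Counted per cell, a Dorsal cell with both genes had a median of 20 positive glial genes of 24, 5 sympathoadrenal genes of 18 and 5 neuronal genes of 16. A Dorsal cell with Sox10 only had 18, 8 and 5.5. The medians in Ventral were 17, 5 and 4 with both genes, and 12, 9 and 7 with Sox10 only. The upper quartile separated the Dorsal classes more than the median: 7 against 14 sympathoadrenal genes and 5 against 11.2 neuronal genes in cells with both genes and with Sox10 only. The classes overlapped, since the Dorsal cells with both genes reached 17 sympathoadrenal and 13 neuronal genes.

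Dct, a melanin synthesis enzyme that marks melanoblasts, was the melanoblast gene that went with Foxd3 in both groups. It was positive in 37.8% of Dorsal cells with both genes, 17.5% of those with Sox10 only and 0 of 14 with neither. In the Ventral classes it was positive in 33.3%, 0 of 27 and 0 of 44 cells, and the 33.3% is 3 of 9 cells. Beside Foxd3, 1 of 4 measured melanoblast genes in Dorsal and 2 of 4 in Ventral were at least 2-fold higher. All-gene shares of higher genes were 4.65% and 11.1%. Mitf, the master factor of melanocytes, was positive in 8.11%, 2.5% and 14.3% of the Dorsal classes and in 11.1%, 11.1% and 6.82% of the Ventral ones. Tyr and Pmel, later pigment genes, were positive in at most 11.1% of any class.

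Among 18 genes described as direct Sox10 targets, of which 14 are in the table, 8 of 14 measured in Dorsal and 11 of 14 in Ventral were at least 2-fold higher in Sox10-positive cells, where 18.1% and 6.88% of all genes were higher. In Dorsal 2 were lower, where 12.5% of all genes were, and in Ventral 0 were. The 2 in Dorsal were Mitf, at 1.97 CPM in Sox10-positive and 9.62 CPM in Sox10-negative Dorsal cells, and Egr2, a zinc finger factor of Schwann cells named after its values were seen, with a log2 difference of -2.67. Erbb3, Ednrb, Dct, Gjc3, Tfap2a and Cnp were among those higher in both, Gjc3 and Cnp being named after their values were seen. Ret, the GDNF receptor kinase, was the single target at least 2-fold lower beside Foxd3 in both groups. It was positive in 16.2% and 42.5% of Dorsal and 33.3% and 59.3% of Ventral cells with both genes and with Sox10 only. Beside Foxd3, 1 of 13 measured targets in Dorsal and 2 of 14 in Ventral were lower. All-gene shares of lower genes were 7.69% and 16.1%, so these counts are near them. Higher beside Foxd3 were 4 of 13 and 7 of 14 targets, where 4.65% and 11.1% of all genes were. Of 25 cell cycle genes, 1 in Dorsal and 3 in Ventral were higher in cells with both genes and 0 were lower, where 4.65% and 11.1% of all genes were higher, so these shares are near those of all genes. In Sox10-positive over Sox10-negative cells 8 in Dorsal and 0 in Ventral were higher, beside 18.1% and 6.88% of all genes.

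**Figure D4:**
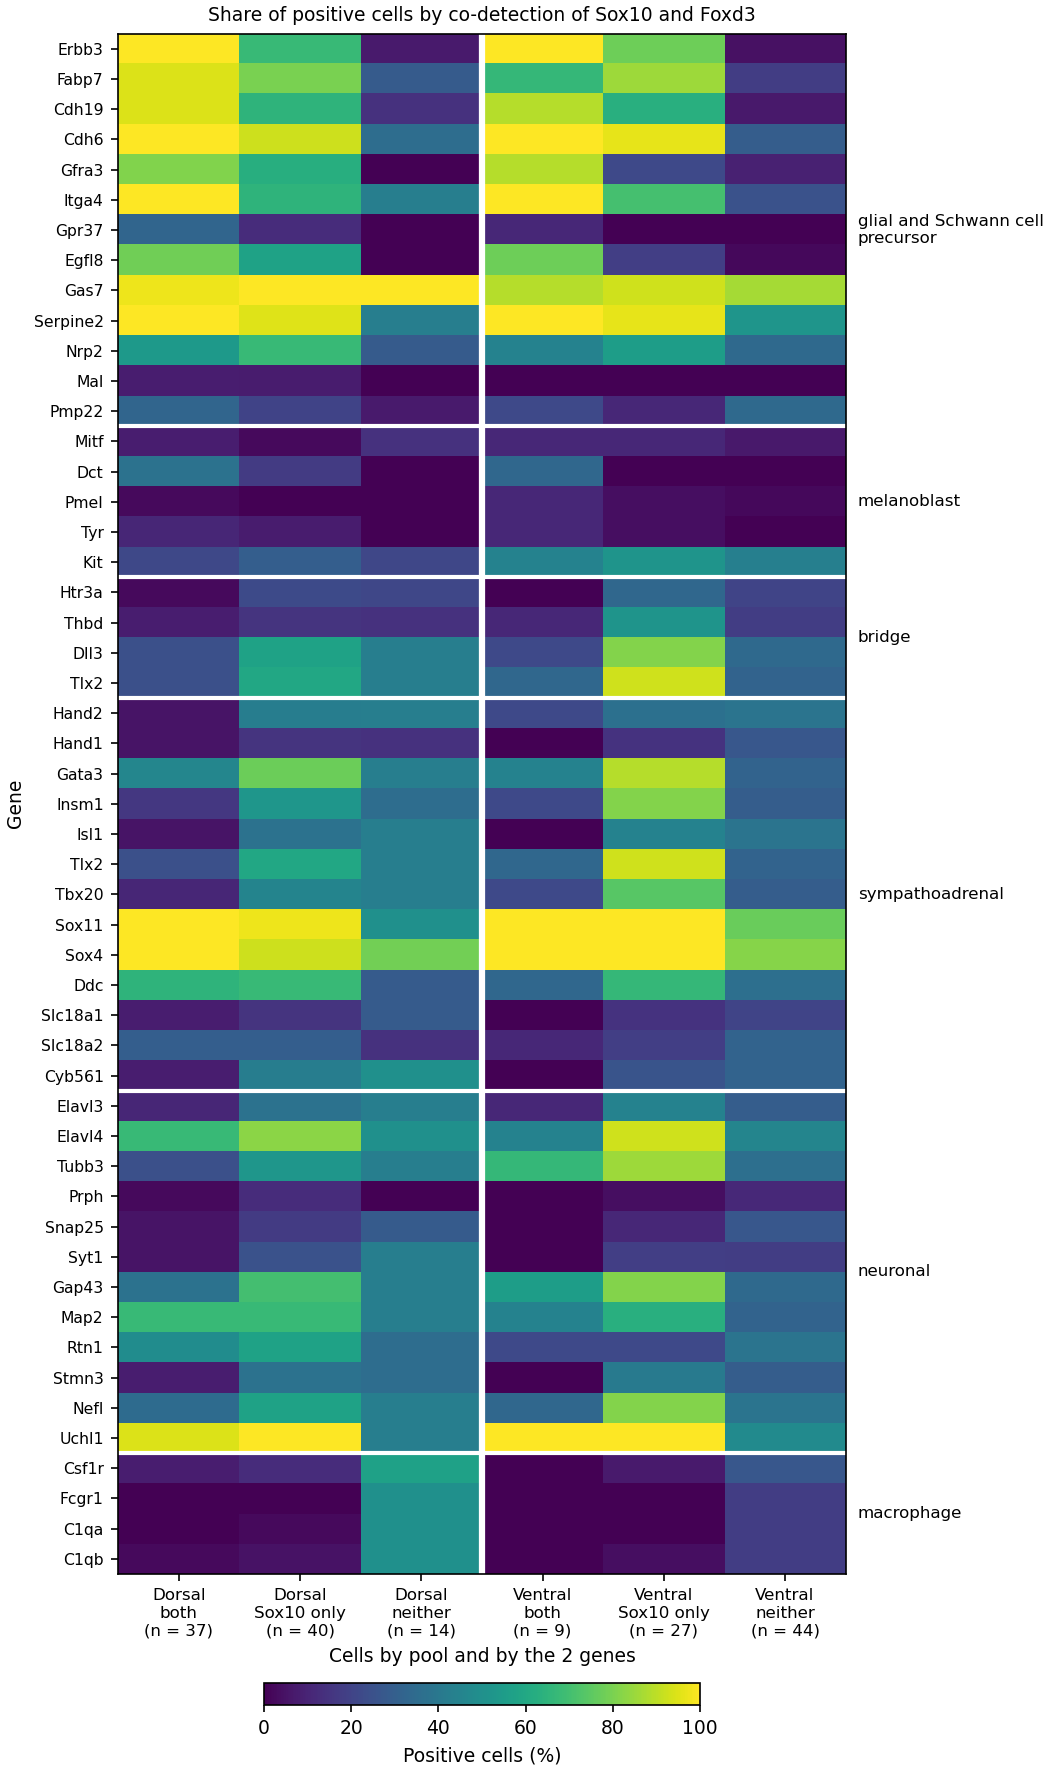
Share of positive cells (%) for list genes in cells with Sox10 and Foxd3, with Sox10 only and with neither, in Dorsal and Ventral cells thinned to 310000 counts; rows are genes grouped by list. Erbb3 is most frequent in cells with both genes, Isl1, Insm1 and Tlx2 are more frequent with Sox10 only than with both, and macrophage genes are found mainly in cells with neither.

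The level of Sox10 itself differed between these classes and moved with the same genes. Its median was 416 CPM in Dorsal cells with both genes, 255 CPM with Sox10 only and 5.73 CPM with neither, and 368, 176 and 1.94 CPM in these Ventral classes. Among cells with at least 200 CPM of Sox10, 33 Dorsal cells had both genes and 26 had Sox10 only. In the former, 9 of 18 sympathoadrenal and 7 of 15 neuronal genes were at least 2-fold lower, where 5.32% of all genes were lower. Their list medians were -0.89 and -0.98. In Ventral 6 of 12 and 6 of 12 were lower, where 15.1% of all genes were. These compare 7 cells with both genes and 10 with Sox10 only. At that level 1 of 24 glial genes was higher in Dorsal and 8 of 22 in Ventral. All-gene shares of higher genes were 5.73% and 13.1%, so the Dorsal glial count is near its share. Median depths of cells with both genes, Sox10 only and neither were 1050698, 1066218 and 908528 counts in Dorsal and 834056, 678516 and 578310 counts in Ventral.

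Low Sox10 counts in the Ngfr+ groups need care. All 15 Dorsal cells under 20 CPM had some Sox10 counts, with a median of 6.61 and a maximum of 14.7, and 40 of 51 such Ventral cells had some, with a median of 0.975. Mesenchymal and HSC pools had 1 of 88 and 0 of 65 cells with any. In these low Dorsal cells the counts had a Spearman coefficient of 0.436 with the Sox10 counts of wells sharing an index and 0.554 with the cell's own total, and in the low Ventral cells 0.482 and 0.423. The macrophage-rich cells ran from 2.39 to 11.8 CPM of Sox10 in Dorsal and from 0 to 4.25 CPM in Ventral. Conversely, the macrophage genes C1qb and Mrc1 had some counts in 55 and 50 of 77 Sox10-positive Dorsal cells and in 25 and 18 of 36 Sox10-positive Ventral cells, against 0 of 69 Mesenchymal cells. Whether reads passed between wells of a pool was not tested. By the threshold on thinned counts, 2 cells under 20 CPM were still classed as positive for Sox10 only, Dorsal 54 at 18.2 CPM and Ventral 75 at 12.1 CPM.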

How the data were processed

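Each of the 335 cells is 1 sample, and GEO's labels give its group and its pair of indices. The authors' deposited table holds estimated counts per gene, made with kallisto 0.43.1 on GRCm38, per the submitters' processing notes. It is not scaled for depth, and 661 of its 14109 entries carry no symbol. Those entries, with 2.96% of all counts, were left out. The deposited log2 table holds, as the values of both tables show, log2 of the estimated count over a cell's size factor, plus 1. It served 1 alternative. Summing to genes, filters and size factor method are not given in the sources used here. Smart-seq2 libraries do not mark strand, but the annotation has no antisense gene that overlaps Sox10 or Foxd3.

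The members and the 16 gene lists were chosen with earlier results of these data known. CPM, differences in log2(CPM + 1) for genes reaching 100 counts over the cells compared, and thinning to 310000 counts (seed 11) were computed here with Python 3.11.15, numpy 2.4.6, pandas 2.3.3 and scipy 1.17.1. Thinning left out 1 Dorsal, 9 Ventral, 19 Mesenchymal and 1 HSC cells. Classes were compared by mean CPM with cells weighted equally, and a gene counted as higher or lower past 2-fold. On simulated Dorsal and Ventral pools, 100 of 100 genes made 4-fold higher and 100 of 100 made 4-fold lower were recovered among 13145 genes. The simulated counts had counting error only, around a mean profile shared by all cells, and only well-counted genes were changed. Recovery thus checks the calculation. It does not show how often genes are called wrongly between small classes of unlike cells. With 1 sample per group no p-value was computed, and doublets were not called because each well was to hold a single sorted cell.

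Genes named are Sox10 and Foxd3, their paralogues and neighbours, the 10 genes most correlated with each, ranked among genes with at least 5 counts in 10% of cells, and up to 4 genes at each end of a list by difference in positive share between classes. Sort genes, mitochondrial genes, pseudogenes and unnamed loci were left out of the ranking. Of 183 listed genes, 161 are in the table and the others are not analysed here. Some listed genes enter the counts but are not reported singly here. No 2 cells of a group were copies: the largest Pearson correlation was 0.743. Alternatives covered weighting, pseudocount, depth, threshold, index subsets and cells left out.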

Additional observations from a re-analysis of the deposited data

How the results depend on the processing

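No paired analysis was possible because the labels carry no replicate numbers. Of 163 recomputed values 122 stayed within the main value's 95% limits, within 1.5 times a count or within 0.1 of a correlation. They include shares in groups with 0 counts of a gene, which no setting could move. The log2 difference of Dorsal over Ventral was, for Sox10, 1.31 with cells weighted equally, 1.70 without the deepest Ventral cell, 1.77 without it and the Ventral cells sharing its indices, 1.94 and 2.05 with odd or even i7 numbers, 2.04 without Dock10 and Cep97 in the totals and 2.96 as a mean of the log2 table. For Foxd3 it was 1.68 without the deepest cell, 1.57 without its index sharers too, 1.54 and 2.49 with odd or even i7, 2.19 from the log2 table and 2.10 with a pseudocount of 0.1 CPM. At 1 count or more, Sox10 was positive in 98.9% of Dorsal and 67.5% of Ventral cells, Foxd3 in 66.3% and 23.8% of these, and Foxd3 in 67% of Sox10-positive Dorsal cells. At 20 counts or more, Sox10 was positive in 73.9% of Dorsal cells, Foxd3 in 9.78% of Dorsal and 2.5% of Ventral cells, and Foxd3 in 13.2% of Sox10-positive Dorsal and 6.06% of Sox10-positive Ventral cells. Unthinned, Sox10 was positive in 94.6% and Foxd3 in 58.1% of Dorsal cells, and Foxd3 in 61.4% of Sox10-positive Dorsal cells. Sox10 was positive in 100% of Foxd3-positive Dorsal cells at 1 count, at 20 counts, unthinned, at 10 CPM and with odd i7. The following settings were chosen after seeing the data. Without macrophage-rich and mesenchyme-rich cells, 90.6% of Dorsal cells were Sox10-positive. With unthinned classes, 17 glial genes in Dorsal were higher beside Foxd3 (5 when thinned), and in Ventral 4 sympathoadrenal and 2 neuronal genes were lower (13 and 11 when thinned), the neuronal list median there being 0.12 and not -2.65. With these classes 7.83% of all genes were higher in Dorsal and 10.9% lower in Ventral. With at least 200 CPM of Sox10, 1 glial gene in Dorsal and 8 in Ventral were higher, and 7 neuronal and 1 bridge genes in Dorsal, 6 sympathoadrenal and 6 neuronal genes in Ventral were lower. All-gene shares at that level were 5.73% higher and 5.32% lower in Dorsal, and 13.1% higher and 15.1% lower in Ventral. The cause of these changes was not tested. Over these thresholds the Dorsal share ran from 9.78% to 66.3% for Foxd3 and from 73.9% to 98.9% for Sox10, and 1 pool per group leaves the spread between embryos unknown.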
